A study of Homo sapiens with 6 samples.

Results

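The SLC25 genes encode the mitochondrial carriers, a family of membrane proteins that move nucleotides, phosphate, amino acids, organic acids and cofactors across the inner mitochondrial membrane. Most carriers share a fold of repeated pairs of membrane helices and work by alternating access, exchanging a substrate on one side of the membrane for another on the other side. They are made from nuclear genes in the cytosol and imported, and the ADP/ATP carriers among them link ATP made in mitochondria to its use in the rest of the cell. Described here are 45 protein-coding genes whose symbol starts with SLC25A, taken by symbol from 37339 transcription units (TUs) that could be matched to an annotation, without the citrate carrier SLC25A1, mitoferrin-1 (SLC25A37) and SLC25A38. The choice used gene names only, and all 45 members had a length on which both assays could be read.

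The study asked how far RNA levels follow transcription and how far they follow RNA stability. It measured K562 cells, a human line of a chronic myelogenous leukemia, untreated and grown in RPMI-1640 with serum, in 4 libraries of total RNA-seq (rRNA-depleted, steady-state RNA) and 2 libraries of PRO-seq (nascent RNA held by engaged polymerases). All 6 libraries came from cells of a single flask, so the spread between them is technical and does not cover differences between cultures. The paper based its main results on previously published K562 libraries, with poly-A+ RNA-seq. It reports that half-life estimates from those were less variable and nearer to published values than estimates from the new libraries. An RNA-seq library held 5732780 to 9002746 counts on TUs, and the PRO-seq libraries held 6993816 and 7245632. Of 9 markers of K562 and its erythroid character, GATA1, KLF1 and TAL1 lay at 155, 186 and 79.7 RNA-seq TPM and the globin genes HBG1, HBG2 and HBE1 between 1828 and 6287 TPM. Of 7 matched markers of other cell types, CD3E, MS4A1, ALB, COL1A1 and COL1A2 lay between 0.0413 and 1.36 TPM, whereas CD3D (109 TPM) and EPCAM (120 TPM) did not lie near 0.

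Levels are given as TPM, in which counts are divided by length and scaled to the same total in each library, so that genes can be compared within an assay. RNA-seq TPM uses the exon length of the counted transcript, and PRO-seq TPM uses the TU span without 500 bp at each end. The ratio of RNA-seq to PRO-seq TPM is proportional to RNA half-life at steady state, and log2 half-life is given here relative to the median mRNA, which is at 0. PRO-seq reads engaged polymerases, so its level depends on elongation rate as well as on transcription rate, which the paper gives as a limit. After corrections with published elongation rates, the paper concludes that such effects appear limited and that more work is needed. The paper also says that faster elongation in long introns may raise the ratio. Elongation rate was not tested here, and the transcription levels compared below are PRO-seq levels. An estimate needed more than 10 TPM in the PRO-seq libraries together and more than 1 TPM in the RNA-seq libraries together. RNA-seq counts were found for 44 of the 45 members and PRO-seq counts for 41, and 31 members (68.9%) had an estimate, against 46.1% of 18964 mRNAs.

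Levels spanned more than 3 orders of magnitude in both assays. ADP/ATP carriers SLC25A5 and SLC25A6 and the phosphate carrier SLC25A3 led both orders, and together held 61.0% of the summed RNA-seq TPM of the 45 members and 45.3% of their summed PRO-seq TPM. In RNA-seq, 12 of the 44 neighbouring pairs in the order did not overlap between libraries and 32 did, so that SLC25A6 and SLC25A3, ranked next to each other, could not be put in an order. In PRO-seq, 23 of 44 neighbouring pairs did not overlap. Among the members with an estimate, the median level was 31.1 TPM in RNA-seq and 41.9 TPM in PRO-seq, against 31.2 and 47.5 TPM over the 8733 mRNAs with an estimate.

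**Figure D1:**
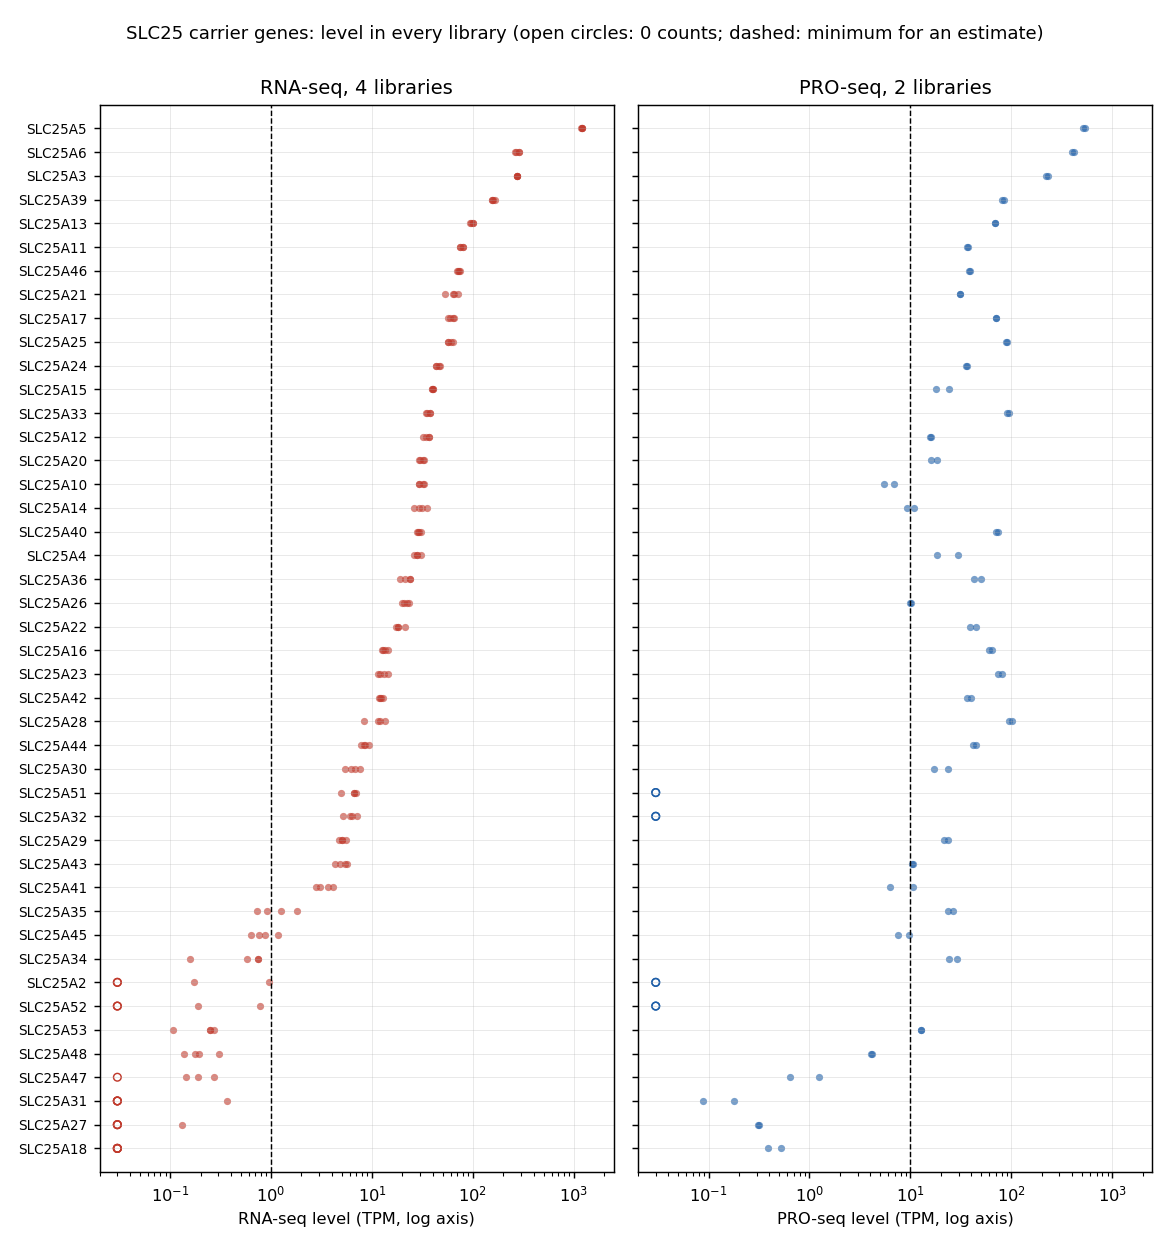
RNA-seq level (left, 4 points a gene) and PRO-seq level (right, 2 points a gene) of 44 of the 45 members in TPM on log axes, with genes ordered by mean RNA-seq level; each point is a library, open circles are libraries with 0 counts, and dashed lines are the minimums of 1 and 10 TPM. The order on the right departs from that on the left: SLC25A28 lies at 8.28 to 13.6 TPM in RNA-seq and at 94.5 and 102 TPM in PRO-seq, and SLC25A51, SLC25A32, SLC25A2 and SLC25A52 had 0 PRO-seq counts.

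Of the 31 members with an estimate, 15 lay above the median mRNA by edgeR's quasi-likelihood test at an adjusted p under 0.05, 14 lay below it, and SLC25A6 and SLC25A25 were not called. Without the TPM minimums, at 10 summed counts, SLC25A6 and SLC25A25 were called above at 0.18 and 0.16 (edgeR adjusted p = 0.0046 and 0.01), and SLC25A6 also with 500 bp in place of 1000 bp removed for PRO-seq. The background is high, since 45.4% of the 8733 mRNAs were called above and 44.9% below. The members' shares were close to both. With a test for more than a 2-fold difference, 11 of the 31 members were called above and 6 below, against 24.3% and 23.2% of mRNAs. The members' share was thus higher than that of mRNAs above and lower below, and no set test was run. With the median mRNA taken over all mRNAs with at least 1 summed count in each assay, 20 of 40 members were above and 12 below, against 42.0% and 33.4% of 14965 mRNAs. SLC25A36 then moved from a call below to a call above, at 0.19 (edgeR adjusted p = 0.016). SLC25A22 and SLC25A43 turned positive without a call, and SLC25A33 and SLC25A40 lost their calls. The median log2 half-life of the members was 0.07 and their quartiles were -0.86 and 1.55, against quartiles of -1.06 and 1.08 for mRNAs. In the order of log2 half-life, the ranges over library combinations overlapped in 23 of 30 neighbouring pairs. The members' median ranged from 0.06 to 0.14 over the 8 combinations of an RNA-seq and a PRO-seq library. By their median the carriers therefore sat near the middle of all mRNAs, although their upper quartile was higher. Their spread (SD 1.52) was near that of mRNAs (SD 1.68), and the differences lay between members. Since the test covers the spread of libraries from 1 flask, it finds small differences, and the sizes below carry more weight than the calls.

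**Figure D2:**
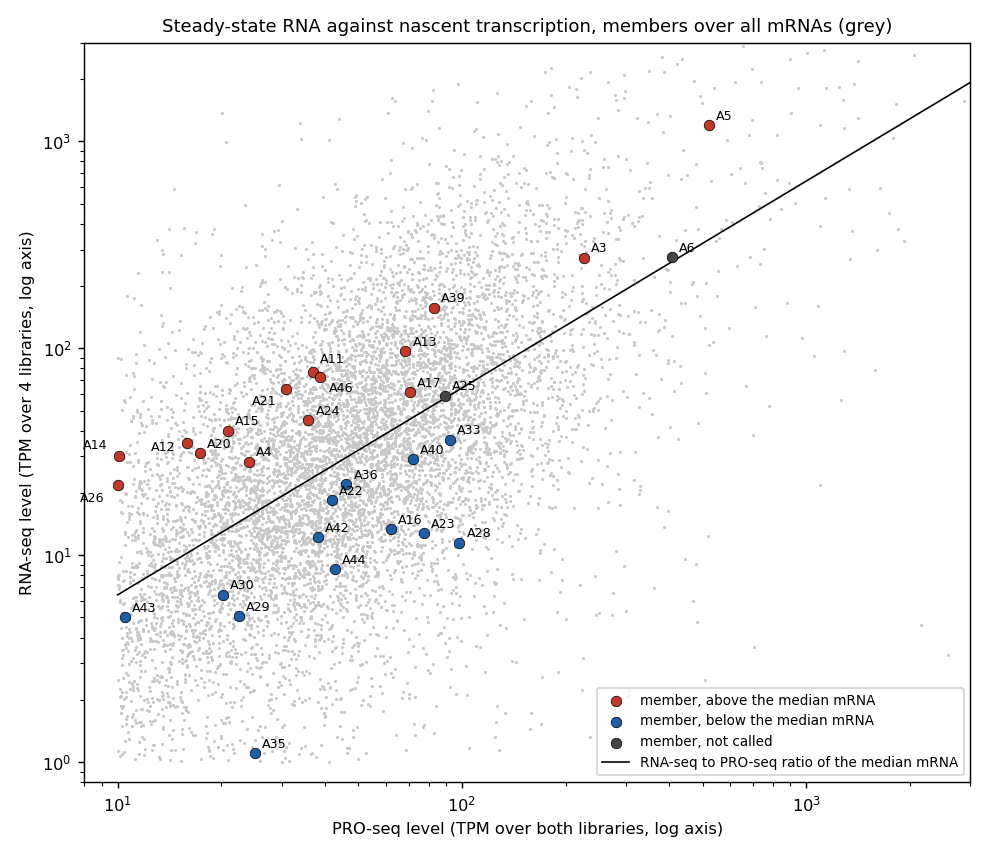
RNA-seq level against PRO-seq level (TPM, log axes) of 30 of the 31 members with an estimate (named points, without the prefix SLC25) over all 8733 mRNAs with an estimate (grey). The line is the ratio of the median mRNA; 15 members lie above it (red), 13 below (blue) and SLC25A6 and SLC25A25 on it (dark grey).

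Across the 40 members with at least 1 count in both assays, RNA-seq and PRO-seq TPM had a Spearman's rho of 0.68, against 0.83 over 14965 mRNAs. Among members with an estimate, rho was 0.48 (n = 31), against 0.55 over mRNAs with an estimate. These are descriptions across genes, which share libraries and lengths. Log2 half-life of the 31 members went with exon length at a rho of -0.37, and at -0.33 over mRNAs, where exon length also divides the RNA-seq counts. It went with total span at 0.12, with exon number at 0.14 and with G+C content of the exons at -0.20.

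The ADP/ATP carriers exchange ADP for ATP across the inner membrane, and K562 cells transcribed them very unevenly. SLC25A5 had the highest level of all members in both assays, with 1169, 1216, 1206 and 1199.85 RNA-seq TPM in replicates 1 to 4 and 531 and 511 PRO-seq TPM in replicates 1 and 2. SLC25A6 had 284, 283, 269 and 262 RNA-seq TPM and 399 and 417 PRO-seq TPM. SLC25A4, the form best known from heart and skeletal muscle, had 28.0, 28.2, 26.1 and 30.9 RNA-seq TPM and 18.3 and 29.8 PRO-seq TPM. SLC25A31, the form best known from testis, had 2 RNA-seq counts, both in replicate 4, and 2 and 1 PRO-seq counts. The libraries of SLC25A5, SLC25A6, SLC25A4 and SLC25A31 did not overlap in either assay.

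These genes encode close relatives, so a read could in principle be placed on the wrong one. Between the coding sequences of SLC25A5 and SLC25A6, each of 894 bases, identity was 79.4% and the longest identical run was 29 bases, shorter than a 75-base RNA-seq read. SLC25A4 was 77.5% identical to SLC25A5 and 78.8% to SLC25A6, and no pair among the 4 genes shared a 75-base window. The stretch below holds the bases that encode the run of arginines and methionines which marks ADP/ATP carriers, in capitals. It is shown because it is among the most conserved parts of the protein and still differs from SLC25A5 at 9 of 60 bases in SLC25A6, 12 in SLC25A4 and 23 in SLC25A31. Sequences are of the GENCODE canonical transcripts on GRCh37, coding positions 682 to 741 in the first 3 and 718 to 777 in SLC25A31.

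SLC25A5: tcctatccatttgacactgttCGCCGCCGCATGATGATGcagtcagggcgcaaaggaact
SLC25A6: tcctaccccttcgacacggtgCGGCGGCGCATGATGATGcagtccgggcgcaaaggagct
SLC25A4: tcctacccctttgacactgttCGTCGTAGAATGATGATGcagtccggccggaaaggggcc
SLC25A31: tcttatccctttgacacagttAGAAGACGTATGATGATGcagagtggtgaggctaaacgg

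SLC25A5 and SLC25A6 were transcribed at like levels and differed in steady-state RNA. SLC25A5 exceeded SLC25A6 by 1.28-fold in PRO-seq (1.23 and 1.33 in the 2 libraries) and by 4.37-fold in RNA-seq (4.11 to 4.59 over 4 libraries). Log2 half-life was 1.84 ± 0.06 (SE) for SLC25A5 (edgeR adjusted p = 7.2e-24) and 0.07 ± 0.06 for SLC25A6 (edgeR adjusted p = 0.26), a difference of 1.77 ± 0.08, which ranged from 1.63 to 1.90 over the 8 library combinations. SLC25A4 stood between them at 0.87 ± 0.17 (edgeR adjusted p = 1.7e-05). Its range over combinations was 0.45 to 1.37, on 29 and 48 PRO-seq counts. SLC25A6 lies in the pseudoautosomal region of X and Y, and whether some of its reads were lost as not unique was not tested.

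The promoters of these 4 carriers and of SLC25A3 are shown because their PRO-seq levels run from the highest of the members to near 0. Each line is the 100 bases before the RefSeq start site on GRCh38.p14. Capitals mark a GC box (GGGCGG or its reverse complement), a CCAAT box or a TATA box (TATAAA), searched on both strands, and none of these letters lies within another.

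SLC25A5, chrX:119468344-119468443, plus strand: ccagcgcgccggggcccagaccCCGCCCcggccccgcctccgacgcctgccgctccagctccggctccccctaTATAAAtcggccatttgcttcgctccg
SLC25A6, chrX:1392114-1392213, minus strand: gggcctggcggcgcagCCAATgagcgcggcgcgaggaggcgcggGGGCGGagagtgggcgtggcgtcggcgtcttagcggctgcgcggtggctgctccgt
SLC25A3, chr12:98593586-98593685, plus strand: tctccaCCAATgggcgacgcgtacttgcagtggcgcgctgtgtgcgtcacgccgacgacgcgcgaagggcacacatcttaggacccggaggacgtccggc
SLC25A4, chr4:185143166-185143265, plus strand: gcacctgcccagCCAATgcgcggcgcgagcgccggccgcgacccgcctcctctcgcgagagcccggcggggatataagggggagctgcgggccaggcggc
SLC25A31, chr4:127730300-127730399, plus strand: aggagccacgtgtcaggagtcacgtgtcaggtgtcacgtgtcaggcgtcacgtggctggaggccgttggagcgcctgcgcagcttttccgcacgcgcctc

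Within these 100 bases the exact letters TATAAA were found in SLC25A5 alone. Near variants, such as the tataag in the SLC25A4 line, were not searched. A CCAAT box was found in SLC25A6, SLC25A3 and SLC25A4, and none of the 3 motifs in SLC25A31. In the same 100 bases SLC25A31 had 11 CpG dinucleotides, against 13 to 17 in the others. RefSeq promoters of 300 bases (250 before the start and 50 after) were found for 38 of the 45 members. A GC box was present in 27 of them (71.1%), against 44.6% of 27305 promoters of all genes, and a CCAAT box in 18 (47.4%), against 35.7%. Unlike the members, the 27305 were not selected as protein-coding genes. No background matched in class or level was compared, so these differences cannot be read as particular to carriers. TATAAA was present in 3 (7.89%), against 12.0%. The ETS motif CCGGAAG was present in 7 (18.4%), against 10.7%. ATGGCGG, a core of YY1 sites, was present in 1 (2.63%), against 5.72%, and GCGCATGCG, a core of NRF1 sites, in 0, against 2.10%. The median number of CpG dinucleotides was 27 in member promoters and 14 in all promoters. Over 300 bases SLC25A31 had 28, near the member median, against 36 to 40 in the other promoters printed above. Across the 38 member promoters, CpG number and PRO-seq TPM had a Spearman's rho of 0.29.

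SLC25A3 imports the phosphate from which ATP is made and, in another splice form, copper. It had 275, 272, 275 and 275 RNA-seq TPM in replicates 1 to 4 and 231 and 221 PRO-seq TPM, and this PRO-seq level was the third highest of the 45 members. Log2 half-life was 0.92 ± 0.04 (edgeR adjusted p = 1.4e-18) with a range of 0.85 to 0.97, between SLC25A4 and SLC25A24.

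**Figure D3:**
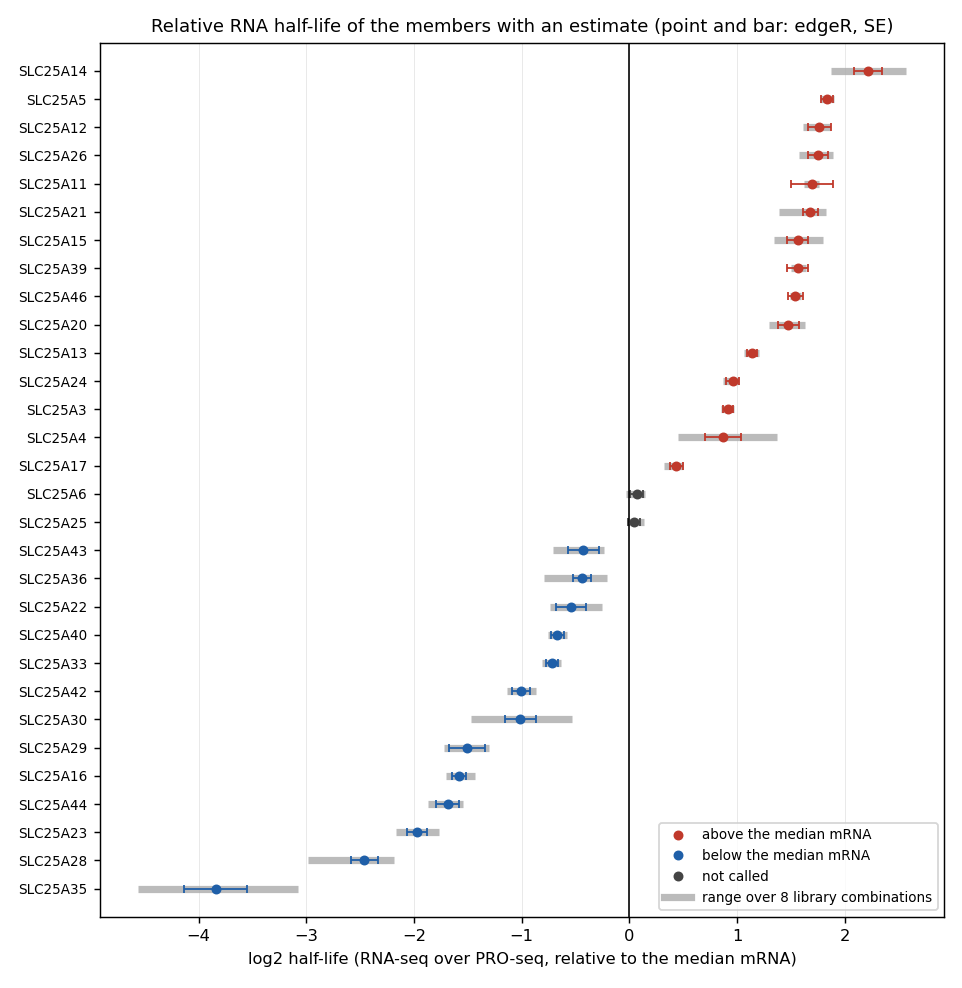
Log2 half-life relative to the median mRNA (horizontal axis, 0 at the line) of 30 of the 31 members with an estimate; points are edgeR estimates, thin bars their SE, and grey bars the range over 8 combinations of an RNA-seq and a PRO-seq library. Estimates run from -3.84 (SLC25A35) to 2.22 (SLC25A14).

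Of the 8 amino acid carriers, 6 had an estimate, 3 of them above and 3 below the median mRNA, against 45.4% and 44.9% of all mRNAs. SLC25A12 and SLC25A13 are the aspartate/glutamate carriers of the malate-aspartate shuttle. SLC25A13 had 100.1, 94.7, 99.8 and 93.6 RNA-seq TPM and 68.5 and 68.6 PRO-seq TPM, with a log2 half-life of 1.14 ± 0.04 (edgeR adjusted p = 3.2e-21). SLC25A12 had 36.3, 32.1, 36.5 and 34.4 RNA-seq TPM and 16.1 and 15.7 PRO-seq TPM, with a log2 half-life of 1.76 ± 0.11 (edgeR adjusted p = 5.1e-16). Thus SLC25A13 was 4.32-fold above SLC25A12 in transcription and 2.79-fold above it in RNA. The transcript counted for SLC25A12 has 630 exon bases that cover 11.5% of the exons of the canonical transcript, and 71.9% of them lie in it, so its RNA-seq level rests on a small part of the mRNA.

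The ornithine carrier SLC25A15 and SLC25A29, a carrier of basic amino acids, had like PRO-seq levels and unlike RNA levels. SLC25A15 had 40.0, 40.6, 38.9 and 39.6 RNA-seq TPM and 17.9 and 24.0 PRO-seq TPM, and SLC25A29 had 5.50, 4.999, 5.01 and 4.66 RNA-seq TPM and 23.5 and 21.4 PRO-seq TPM. The RNA-seq libraries of the pair did not overlap and the PRO-seq libraries did. Log2 half-life was 1.57 ± 0.10 for SLC25A15 (edgeR adjusted p = 1.0e-15) and -1.51 ± 0.17 for SLC25A29 (edgeR adjusted p = 8.2e-10), a difference of 3.07 ± 0.19 (8.41-fold).

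SLC25A44, a carrier of branched-chain amino acids, had 8.36, 9.25, 8.57 and 7.74 RNA-seq TPM against 41.3 and 44.2 PRO-seq TPM, and a log2 half-life of -1.69 ± 0.11 (edgeR adjusted p = 3.6e-15). The glutamate carriers were SLC25A22, with 17.1, 18.2, 21.2 and 18.2 RNA-seq TPM and 38.6 and 45.1 PRO-seq TPM, and SLC25A18, with 0 RNA-seq counts and 4 and 3 PRO-seq counts. A count of 0 over the 4 RNA-seq libraries allows SLC25A18 up to 0.101 TPM at 3 counts. SLC25A22 lay below the median mRNA at -0.54 ± 0.14 (edgeR adjusted p = 0.00087).

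The oxoglutarate carrier SLC25A11 and the oxodicarboxylate carrier SLC25A21 both lay above the median mRNA. SLC25A11 had 79.3, 74.4, 80.3 and 74.3 RNA-seq TPM and 36.3 and 37.6 PRO-seq TPM, and a log2 half-life of 1.70 ± 0.19 (edgeR adjusted p = 1.5e-09), which rests on 18 and 19 PRO-seq counts over a span of 2917 bp. SLC25A21 had 65.6, 64.1, 52.8 and 70.5 RNA-seq TPM and 31.0 and 30.9 PRO-seq TPM, and a log2 half-life of 1.68 ± 0.07 (edgeR adjusted p = 2.0e-20). It was the longest TU of the members, with a span of 493993 bp and 3947 and 4013 PRO-seq counts. The part of elongation rate in its value was not tested. Its counted transcript has 1023 exon bases, which cover 26.3% of the exons of the canonical transcript and 99.9% of its coding sequence. The dicarboxylate carrier SLC25A10 had 31.9, 29.3, 32.9 and 29.2 RNA-seq TPM, but its 5.47 and 6.83 PRO-seq TPM left it without an estimate.

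The carnitine carrier SLC25A20, which brings acylcarnitines in for fatty acid oxidation, had RNA-seq levels of 29.2 to 32.6 TPM and PRO-seq levels of 16.1 and 18.5 TPM. Its log2 half-life was 1.48 ± 0.10 (edgeR adjusted p = 7.8e-15).

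Of the 10 carriers of nucleotides and cofactors, 7 had an estimate, 2 of them above and 5 below the median mRNA, where 45.4% and 44.9% of all mRNAs lay, and no difference between groups of carriers was tested. SLC25A26, which imports the methyl donor S-adenosylmethionine, was above it at 1.75 ± 0.09 (edgeR adjusted p = 7.2e-18), with 23.4, 22.3, 20.9 and 19.7 RNA-seq TPM and 10.1 and 9.96 PRO-seq TPM, at the edge of the 10 TPM minimum. SLC25A17, a carrier of peroxisomes rather than mitochondria, was also above it, at 0.43 ± 0.06, with RNA-seq levels of 57.1 to 64.6 TPM.

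SLC25A16 and SLC25A42, which serve coenzyme A, were both below the median mRNA. SLC25A16 had 12.9, 13.3, 12.7 and 14.4 RNA-seq TPM against 59.5 and 64.6 PRO-seq TPM, and a log2 half-life of -1.58 ± 0.07 (edgeR adjusted p = 3.3e-20). SLC25A42 had 11.7 to 12.9 RNA-seq TPM against 36.1 and 40.0 PRO-seq TPM, and lay at -1.01 ± 0.08. Their RNA levels overlapped between libraries although SLC25A42 had 0.613 of the PRO-seq level of SLC25A16.

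SLC25A33 and SLC25A36 carry pyrimidine nucleotides. SLC25A33 had 34.1, 37.7, 35.3 and 37.1 RNA-seq TPM and 90.05 and 94.3 PRO-seq TPM, and SLC25A36 had 21.1, 23.6, 18.8 and 23.7 RNA-seq TPM and 49.9 and 42.6 PRO-seq TPM. Log2 half-life was -0.72 ± 0.06 for SLC25A33 and -0.44 ± 0.08 for SLC25A36, and their difference ranged from -0.06 to 0.50 over the library combinations, so the libraries did not give it a single sign. With the median mRNA taken at 1 summed count, SLC25A36 was called above at 0.19 (edgeR adjusted p = 0.016). SLC25A33 was then not called, at -0.088. In SLC25A33, 19.3% of 75-base windows of the counted transcript have an exact copy elsewhere in the genome, from which reads are not unique.

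The NAD carriers SLC25A51 and SLC25A52 could not be measured as a pair. SLC25A51 had 6.597, 6.64, 4.91 and 6.95 RNA-seq TPM and 0 PRO-seq counts, and SLC25A52 had 4 RNA-seq counts in all and 0 PRO-seq counts. The counted transcript of SLC25A51 holds 0% of the canonical coding sequence, and 9.73% of its exon bases lie in the canonical transcript. The coding sequences of the pair are 97.6% identical over 891 bases, with a run of 169 identical bases and 226 shared windows of 75 bases. The first 75 bases of that run, coding positions 716 to 790 of both, show a read that cannot be placed. They lie outside the counted transcript of SLC25A51, so of the counts given here they bear on those of SLC25A52. In the counted transcript of SLC25A52, 19.7% of 75-base windows have an exact copy elsewhere, so most of it gives unique RNA-seq reads.

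SLC25A52 and SLC25A51: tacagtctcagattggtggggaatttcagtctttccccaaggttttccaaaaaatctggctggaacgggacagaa

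The ATP-Mg/phosphate carriers SLC25A23, SLC25A24, SLC25A25 and SLC25A41 adjust the adenine nucleotide content of the matrix, and the first 3 respond to calcium. SLC25A24 had 43.1, 46.3, 42.7 and 46.8 RNA-seq TPM and 35.3 and 36.4 PRO-seq TPM. SLC25A25 had 57.1, 57.0, 63.4 and 60.8 RNA-seq TPM and 88.2 and 90.6 PRO-seq TPM. SLC25A23 had 13.0, 12.1, 11.5 and 14.3 RNA-seq TPM and 74.2 and 81.0 PRO-seq TPM. The order thus differed between assays, with SLC25A24 the lowest of the 3 in transcription and above SLC25A23 in RNA.

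Log2 half-life was 0.96 ± 0.06 for SLC25A24 (edgeR adjusted p = 1.9e-15), 0.04 ± 0.06 for SLC25A25 (edgeR adjusted p = 0.45) and -1.97 ± 0.09 for SLC25A23 (edgeR adjusted p = 9.7e-19). SLC25A24 exceeded SLC25A23 by 2.93 ± 0.11 (range 2.78 to 3.09). The transcript counted for SLC25A23 is annotated as a target of nonsense-mediated decay, and 65.4% of its exon bases lie in the canonical transcript. Their part in its low value was not tested. SLC25A41 had 3.66, 2.77, 4.09 and 3.09 RNA-seq TPM and 6.31 and 10.7 PRO-seq TPM, and no estimate.

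SLC25A39 and SLC25A40 import glutathione. SLC25A39 had 158, 154, 164 and 156 RNA-seq TPM and 81.1 and 84.9 PRO-seq TPM, and SLC25A40 had 29.2, 28.5, 30.6 and 28.2 RNA-seq TPM and 70.0 and 73.9 PRO-seq TPM. Their transcription differed 1.15-fold and their RNA 5.42-fold, with no overlap between libraries in either assay. Log2 half-life was 1.56 ± 0.10 for SLC25A39 (edgeR adjusted p = 9.3e-16) and -0.67 ± 0.06 for SLC25A40 (edgeR adjusted p = 1.4e-11), a difference of 2.23 ± 0.11. Their coding sequences are 63.5% identical, with no shared run over 13 bases.

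Mitoferrin-2, SLC25A28, brings iron into mitochondria. It had 94.5 and 102 PRO-seq TPM and 12.1, 11.3, 8.28 and 13.6 RNA-seq TPM, the lowest of them in replicate 3. Log2 half-life was -2.46 ± 0.13 (edgeR adjusted p = 8.2e-18), the second lowest of the members, with a range of -2.98 to -2.19. It was counted on its canonical transcript, and no other TU of its strand overlapped it. Mitoferrin-1, SLC25A37, lies outside the members and had 58.6 RNA-seq TPM, 92.8 PRO-seq TPM and a log2 half-life of -0.02 ± 0.05 (edgeR adjusted p = 0.66). The mitoferrins were thus transcribed at like levels.

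Among relatives of the uncoupling proteins, SLC25A14 had the highest log2 half-life of the members, 2.22 ± 0.13 (edgeR adjusted p = 4.2e-16). It had 25.8, 31.3, 28.9 and 35.2 RNA-seq TPM and 11.0 and 9.23 PRO-seq TPM, again at the edge of the minimum. SLC25A30 had 6.77, 5.40, 6.15 and 7.68 RNA-seq TPM and 17.0 and 23.4 PRO-seq TPM, and lay below the median mRNA at -1.01 ± 0.15 (edgeR adjusted p = 2.0e-07). SLC25A30 was thus the more transcribed of the pair and the less abundant, and the difference in log2 half-life was 3.23 ± 0.20 (range 2.57 to 3.88). SLC25A27 had 1 RNA-seq count and 4 PRO-seq counts.

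Among the remaining members, SLC25A46, an outer-membrane protein of mitochondrial dynamics, had RNA-seq levels of 69.4 to 75.2 TPM, PRO-seq levels of 38.3 and 38.9 TPM and a log2 half-life of 1.54 ± 0.07 (edgeR adjusted p = 1.7e-19). SLC25A43 lay at -0.43 ± 0.14 (edgeR adjusted p = 0.0067). SLC25A35 had the lowest value of the members, -3.84 ± 0.29 (edgeR adjusted p = 2.0e-13), with 26.4 and 23.6 PRO-seq TPM against 0.722, 0.913, 1.79 and 1.25 RNA-seq TPM, which are 6, 8, 10 and 8 counts. Its counted transcript has 59.2% of its exon bases in the canonical transcript. SLC25A34 and SLC25A53 had a like pattern below the RNA-seq minimum. SLC25A34 had 28.99 and 23.9 PRO-seq TPM and 0.156 to 0.746 RNA-seq TPM, and SLC25A53 had 12.8 and 12.7 PRO-seq TPM and 0.108 to 0.275 RNA-seq TPM.

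The values next to the minimums were those of SLC25A26, SLC25A14 and SLC25A43 in PRO-seq, at 10.0, 10.1 and 10.5 TPM over both libraries, and of SLC25A35 in RNA-seq, at 1.10 TPM over 4. The nearest members outside were SLC25A41, at 8.52 PRO-seq TPM, and SLC25A45, at 0.857 RNA-seq TPM and 8.67 PRO-seq TPM. In all, 14 members had no estimate. SLC25A10, SLC25A32, SLC25A41 and SLC25A51 missed it by PRO-seq alone, SLC25A34 and SLC25A53 by RNA-seq alone, and SLC25A2, SLC25A18, SLC25A27, SLC25A31, SLC25A45, SLC25A47, SLC25A48 and SLC25A52 by both. SLC25A47 had 4 RNA-seq counts and 3 PRO-seq counts, and SLC25A48 had 0.137 to 0.305 RNA-seq TPM and 4.07 and 4.14 PRO-seq TPM.

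For 4 of these 14, the region counted for PRO-seq was shared with another TU. On GRCh37, over 90% of the PRO-seq length of SLC25A2, SLC25A10, SLC25A32 and SLC25A51 lay inside another counted TU of the same strand, and 39 of the 45 members had no such overlap. SLC25A51 (chr9:37879397-37904350) lay wholly within ENSG00000255872, which had 3671 PRO-seq counts. SLC25A2, an intronless ornithine carrier gene (chr5:140682202-140683616), lay wholly within the counted transcript of TAF7, which had 903. SLC25A10 (chr17:79679266-79688046) had 93.9% of its PRO-seq length within ENSG00000262660, which had 1058 PRO-seq counts and 5 RNA-seq counts, whereas SLC25A10 had 25 and 798. SLC25A32, the folate carrier, had 0 PRO-seq counts and 240 RNA-seq counts, with 99.9% of its PRO-seq length within ENSG00000285982.

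The same held for mRNAs in general. Of 603 mRNAs wholly overlapped on their own strand, 96.2% had 0 PRO-seq counts, against 22.6% of 824 wholly overlapped on the opposite strand only and 9.97% of 10949 not overlapped. In such members a PRO-seq count of 0 does not measure transcription. Exons were shared as well, with 84.8% of the exon bases of SLC25A32, 59.55% of those of SLC25A10 and 6.52% of those of SLC25A51 overlapped on the same strand. Of 197 mRNAs with exons wholly overlapped on their own strand, 95.9% had 0 RNA-seq counts, against 15.2% of 12959 not overlapped. The RNA-seq levels of SLC25A32 and SLC25A10 may thus be too low, which was not tested. For SLC25A2 and SLC25A52, whose PRO-seq lengths are 415 and 297 bp with 1000 bp removed, 3 counts correspond to 13.8 and 19.3 TPM. On these lengths 0 counts do not place them under the 10 TPM minimum, and limits with 500 bp removed were not computed. These limits cover counting error only. On the opposite strand, another TU covered 42.1% of the PRO-seq length of SLC25A12, 47.3% of that of SLC25A18 and 27.8% of that of SLC25A27.

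The counted transcript was the canonical one for 23 members and another for 22, with 5 annotated as nonsense-mediated decay targets and 2 without a defined coding sequence. For 6 members (SLC25A12, SLC25A23, SLC25A35, SLC25A45, SLC25A48 and SLC25A51) less than 80% of the counted exon bases lay in the canonical transcript. Without these, 14 members lay above and 12 below the median mRNA, against 45.4% and 44.9% of all mRNAs, and the median log2 half-life was 0.26.

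Related genes outside the members were described by the same measure. Of 7 family genes outside the rule, 5 had an estimate, with 3 above and 1 below the median mRNA, against the 45.4% and 44.9% of all mRNAs. The citrate carrier SLC25A1 lay at 1.10 ± 0.09, and MTCH1 and MTCH2, relatives that insert proteins into the outer membrane, at 1.82 and 1.92. The uncoupling protein UCP2 lay at -2.60 ± 0.10, with 17.6 RNA-seq TPM against 166 PRO-seq TPM, beside 11.5 and 98.4 TPM for SLC25A28. Of 9 matched transporters of other families, 8 had an estimate, with 6 above and 2 below, against the same background, and a median of 1.37. The outer-membrane channels VDAC1, VDAC2 and VDAC3 lay at 2.60, 1.39 and 3.94, the pyruvate carrier subunit MPC2 at 2.16, and the sideroflexins SFXN1, SFXN4, SFXN5 and SFXN2 at 1.34, 0.98, -0.60 and -2.20.

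Of 9 matched genes of the machinery that imports carriers, 8 had an estimate, with 6 above and 2 not called, where 45.4% of all mRNAs were called above, and a median of 1.43. The receptors TOMM20 and TOMM70 lay at 1.22 and 1.48, the pore TOMM40 at 1.38 and TOMM22 at 1.87, and the chaperone TIMM10 at 2.09 and TIMM29 at 1.47. TIMM22, which forms the insertion channel for carriers, and TIMM9 were not called, at -0.05 ± 0.13 (edgeR adjusted p = 0.71) and -0.08 ± 0.08 (edgeR adjusted p = 0.35).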

How the data were processed

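The authors trimmed reads with Cutadapt, aligned them with HISAT2 to GRCh38 and deposited raw HTSeq counts per transcript (the longest, per the labels). Tool versions and the use of strand in counting: not given in the sources used here. Records that name no TU, 66.5% to 68.6% of an RNA-seq and 86.5% or 88.6% of a PRO-seq library, were left out. Of 42371 transcripts, 88.1% were matched by identifier to GENCODE v44 on GRCh37, which gave lengths and classes. Counts were summed for TPM. Each TU was tested with edgeR 4.0.16 (R 4.3.3), by its quasi-likelihood test with TMM and length offsets centred on the median mRNA, with Benjamini-Hochberg adjustment over 9931 TUs, after a test on simulated data. SE is the estimate over the root of F. DESeq2 1.42.0 and other filters, lengths, thresholds and left-out libraries were alternatives. Members and lists were chosen with earlier results of these data known. Per-library values are given for the 5 highest members in each assay, the 6 highest and 6 lowest log2 half-lives among members called with the same sign in replicates 1 and in replicates 2, and 9 families of related carriers. Values of other members were added after they were seen. Overlap and exact 75-base copies were computed on GRCh37, and identity by global alignment. Precision of counts is limited by depth and stated as library ranges. SLC25A38, MPC1 and AGK were not analysed here, and the values of 1 member, which stays in the counts, are not reported here.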

Additional observations from a re-analysis of the deposited data

Results flagged for a closer look

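Among 31 members tested for a library standing apart from the other RNA-seq libraries, 1 was flagged. SLC25A3 had 272 TPM in replicate 2 against 275 TPM in each of the others, a gap of 0.842 of the whole range, above Dixon's critical value for 4 samples. Chance alone flags about 1 in 20 such groups, and the range itself spans 271.8 to 275.3 TPM.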

How the results depend on the processing

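The counts of members above and below the median mRNA stayed within 1.5 times their main values under every alternative but the test for a 2-fold difference, which called 6 members below. The median log2 half-life of the members was 0.16 with 500 bp removed for PRO-seq, 0.32 at 1 summed count (median shift of the members 0.63, since the median mRNA is then taken over more mRNAs), -0.083 at 10 summed counts, -8.2e-05 with minimums of 20 and 2 TPM, 0.12 with lengths free of shared bases and 0.26 without the 6 members with under 80% of their counted exon bases in the canonical transcript, the last 2 chosen after seeing the data. At 1 summed count SLC25A36 moved to a call above, at 0.19 (edgeR adjusted p = 0.016). SLC25A22 and SLC25A43 turned to 0.087 and 0.20 without a call (edgeR adjusted p = 0.61 and 0.26). SLC25A33 and SLC25A40 lost their calls at -0.088 and -0.041 (edgeR adjusted p = 0.19 and 0.6). SLC25A6 was called above at 1 summed count (0.70), at 10 (0.18) and with 500 bp removed (0.16), and SLC25A25 at 1 (0.67) and at 10 (0.16). With 500 bp removed the median shift of the members was -0.02, while short TUs moved more, SLC25A5 from 1.84 to 2.12 and SLC25A11 from 1.70 to 1.98. Leaving out a library gave 13 to 15 members above, 13 or 14 below, 30 or 31 with an estimate and a median of -0.076 (without PRO-seq replicate 1, where SLC25A14 and SLC25A26 fell under the minimum) to 0.27 (without RNA-seq replicate 3, where SLC25A35 did). SLC25A43 lost its call with DESeq2. With lengths free of shared bases SLC25A10 gained an estimate, 0.28 (edgeR adjusted p = 0.35). Same-numbered libraries share only a number (correlation of replicate differences -0.02). With a replicate block 15 members were above and 14 below, and SLC25A25, not called, turned to -0.011. Depth limits SLC25A11, SLC25A4 and SLC25A35 most.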
